A study of Mus musculus with 4 samples.

Results

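The glycolytic enzymes form the cytosolic route that splits glucose into pyruvate and lactate, and 10 of their genes were listed by name: Hk2, Pfkl, Pfkp, Aldoa, Tpi1, Pgk1, Pgam1, Eno1, Pkm and Ldha. Each gene was read from its brightest probe set, by mean signal over all arrays, among non-control probe sets whose annotation gives that gene symbol alone. This found 9 of the 10 genes, out of 18193 genes with such a probe set on the array. Eno1 has no such probe set in the annotation used here and was not analysed. Expression was measured in the liver of Sox17+/- and wildtype mouse fetuses on day 17 of gestation, with 2 biological replicates of each genotype and 1 Affymetrix array for each replicate. Fetuses of both genotypes were C57BL/6, from virgin females mated with Sox17+/- males, and the liver had been cut away from the biliary system. Neither the Sox17 allele, nor the sex of the fetuses, nor any pooling of livers is stated in the labels. The comparison of Sox17+/- with wildtype liver is the only contrast of the design.

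Glycolysis first traps glucose in the cell as a phosphate ester, spends a further phosphate at phosphofructokinase, and then splits the sugar into a pair of triose phosphates. The later steps recover the investment as ATP, and lactate dehydrogenase regenerates the NAD+ that the pathway needs when oxygen is short. Adult hepatocytes use liver-type isoforms at several steps, such as pyruvate kinase L, while Aldoa, Pkm and Ldha are forms used in many tissues and Hk2 is best known from muscle and fat. Many of these genes are known targets of hypoxia-inducible factor (HIF), a dimer of an oxygen-regulated alpha subunit and Arnt that binds DNA at a core containing the letters CGTG. The fetal liver is also the main site of blood formation, so its RNA comes from erythroid and other haematopoietic cells as well as from hepatoblasts.

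All 9 measured enzymes had a higher signal on the Sox17+/- array than on the wildtype array in both pairs of same-numbered arrays. The list was chosen with earlier results of these data known, so its counts here are a description and not a test. Of all 11691 tested genes, 25.5% were higher in both pairs. Among the brightest 5% of probe sets, the range that held 6 of the 9 enzymes, 30.3% of 1350 genes were higher in both. For 6 enzymes (Hk2, Pfkl, Pfkp, Aldoa, Pgam1 and Pkm) both Sox17+/- arrays lay above both wildtype arrays, against 14.5% of all tested genes. Of these, Pfkl, Aldoa and Pgam1 were in the brightest 5%, where 15.3% of genes had that order. Hk2, Pfkp and Pkm were dimmer. The log2 differences ran from 0.13 for Ldha to 1.68 for Pfkp, with a median of 0.54. The median over all tested genes was -0.02. These differences are on the log2(signal + 16) scale, Sox17+/- minus wildtype. No enzyme passed limma's test after Benjamini-Hochberg adjustment over all 22519 tested probe sets (adjusted p = 0.9999 for each), and neither did any other probe set, with 0% of probe sets called higher and 0% lower. At an unadjusted p under 0.05, 4 of the 9 enzymes were higher, and over all probe sets 1.79% were higher and 2.31% lower. The median of the enzymes was 0.69 within the pair numbered 1 and 0.38 within the pair numbered 2. It was 0.54 without Sox17+/- replicate 1, 0.89 without Sox17+/- replicate 2, 0.74 without wildtype replicate 1 and 0.63 without wildtype replicate 2.

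**Figure D1:**
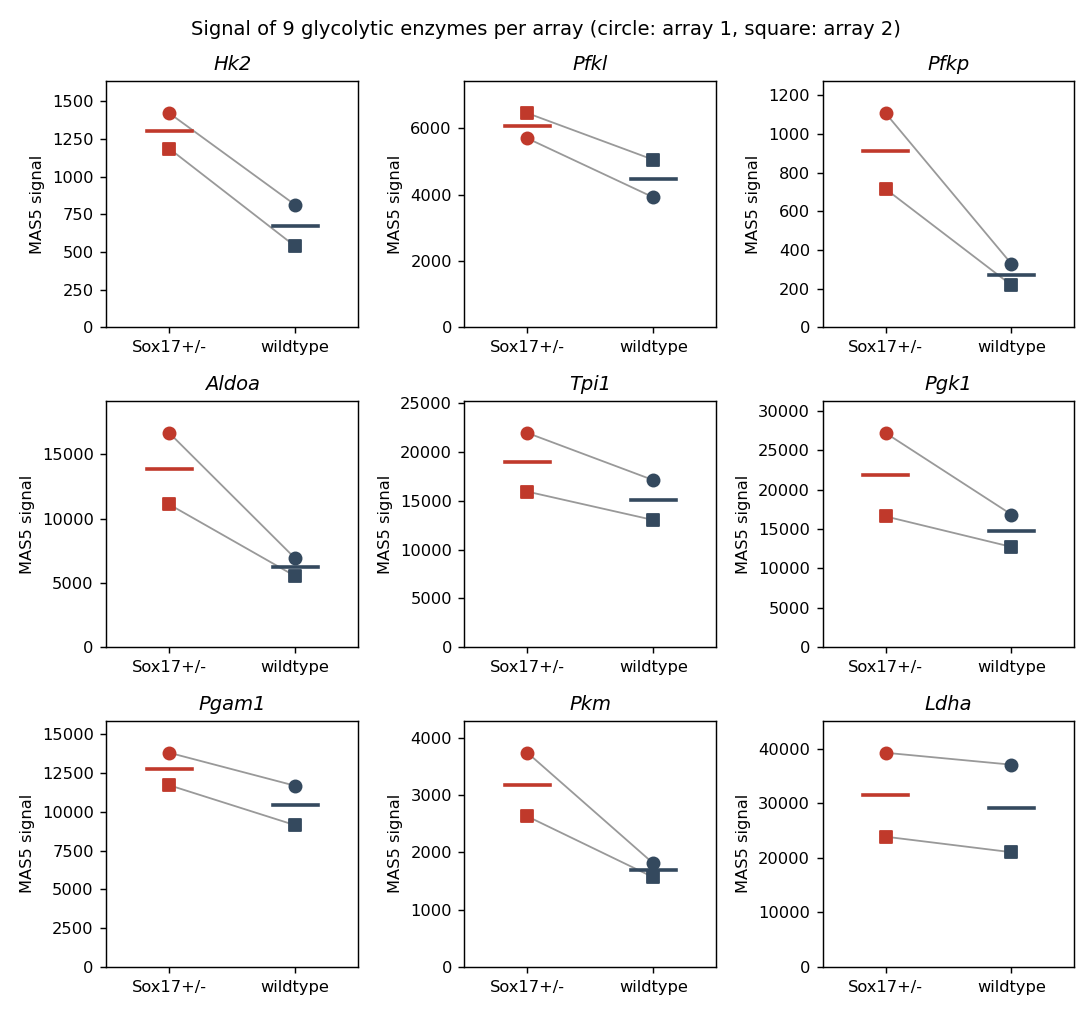
MAS5 signal (linear scale from 0, arbitrary units) of 9 glycolytic enzymes in Sox17+/- liver (left, red) and wildtype liver (right, dark blue), 2 arrays each. Circles are the arrays numbered 1, squares those numbered 2, grey lines join same-numbered arrays and bars are means. Every grey line falls toward wildtype, steeply for Pfkp, Aldoa, Hk2 and Pkm and barely for Ldha.

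The arrays had been scaled to a common trimmed mean, and their median signals were 84.7 to 103. For 8 of the 9 enzymes, all except Pfkl, array 1 was brighter than array 2 in both genotypes. Wildtype array 1 stood apart in its Actb control (3' signal 11909.5, where the lowest of the remaining arrays had 24712). Without wildtype array 1, both Sox17+/- arrays lay above the remaining wildtype array for all 9 enzymes. This was nearly set by the pairs: Sox17+/- array 2 was above wildtype array 2 for all 9, and below Sox17+/- array 1 for 8. Without Sox17+/- replicate 1 the groups were apart for 6 enzymes, and without wildtype replicate 2 also for 6. With an array left out, fewer arrays have to be in order, and the share of all tested genes was not computed. Sox17 itself, on its brighter probe set, had signals of 139 and 124 in Sox17+/- liver against 244 and 264 in wildtype. Xist, the RNA of the inactive X chromosome, named after its values were seen, had signals of 4459 and 50.9 in Sox17+/- liver against 4681 and 7608 in wildtype, a log2 difference of -0.07 within the pair numbered 1 and -6.83 within the pair numbered 2. The Y-linked genes Eif2s3y, Kdm5d and Uty had signals of at most 55.6 on every array. Without Sox17+/- replicate 2, the array low in Xist, the Sox17+/- array lay above both wildtype arrays for all 9 enzymes. That too was nearly set by the pairs, since wildtype array 1 was above wildtype array 2 for 8 of the 9. A relation of the enzymes to Xist was not tested. The hepatocyte proteins Alb and Afp had signals of at least 22768 on every array. In a bulk sample, fewer cells of a type and less RNA per cell cannot be told apart.

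Since the enzymes were higher together, the DNA before their start sites was read for ACGTG or its reverse complement CACGT, letters that contain the core bound by HIF. Overlapping matches, as in CACGTG, were counted once. Of all 32851 windows of 250 bases in the RefSeq table (GRCm38.p6), 16.6% held at least 1 match and 1.95% held 2 or more. Of the 13 windows of the 9 enzymes, 7 held at least 1 and 3 held 2 or more. By gene, 6 of the 9 enzymes had a match, against 18.5% of all 27025 genes. The enzymes' windows were 50.4% to 69.6% G or C, against a median of 52.4% over all windows. An Aldoa window without a match was at 50.4%, and every other window of the enzymes was above that median. The windows with a match were 61.6% to 69.6% G or C. The share with a match among windows of like G and C content was not computed. The windows with 2 or more matches, those of Hk2, Pgk1 and Ldha, are shown because they hold the most, with the matches in capitals.
Hk2, chr6:82774455-82774704, minus strand: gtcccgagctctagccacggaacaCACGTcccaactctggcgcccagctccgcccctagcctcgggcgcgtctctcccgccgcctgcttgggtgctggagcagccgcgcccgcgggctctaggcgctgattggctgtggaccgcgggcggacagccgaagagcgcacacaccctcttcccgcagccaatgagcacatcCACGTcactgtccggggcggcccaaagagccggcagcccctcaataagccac
Pgk1, chrX:106186850-106187099, plus strand: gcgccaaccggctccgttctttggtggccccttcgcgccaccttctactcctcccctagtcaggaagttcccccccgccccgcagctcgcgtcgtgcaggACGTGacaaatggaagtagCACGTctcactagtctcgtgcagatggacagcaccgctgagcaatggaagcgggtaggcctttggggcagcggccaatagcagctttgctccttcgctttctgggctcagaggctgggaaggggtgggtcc
Ldha, chr7:46845554-46845803, plus strand: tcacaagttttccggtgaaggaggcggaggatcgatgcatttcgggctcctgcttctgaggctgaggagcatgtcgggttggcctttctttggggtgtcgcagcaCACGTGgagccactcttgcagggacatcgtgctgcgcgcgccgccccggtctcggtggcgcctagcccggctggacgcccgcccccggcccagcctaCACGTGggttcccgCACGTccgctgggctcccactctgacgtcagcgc
The matches began 226 and 52 bases before the start of Hk2, 150 and 131 before that of Pgk1, and 145, 48 and 34 before that of Ldha. The Ldha window lies within the annotated gene, which has a longer model that begins upstream. Pgam1 and Pkm had 1 match, Aldoa had 1 that fell in a pair of overlapping windows, and Pfkl, Pfkp and Tpi1 had 0 in these windows. Only ACGTG and CACGT were counted, so 0 does not mean that CGTG is absent: the Pfkp and Pfkl windows hold GCGTG. Ldha, with 3 matches, had the smallest log2 difference (0.13), and Pfkp, with 0, the largest (1.68). A relation between matches and differences was not tested. A match is a stretch of letters and not evidence of binding.

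Of the enzymes at the entry of the pathway, hexokinase 2 and the platelet-type phosphofructokinase both had groups that did not overlap, higher in Sox17+/- liver. Hk2 (chr6:82725025-82774454, GRCm38.p6), which phosphorylates glucose, had signals of 1422 and 1187 on the Sox17+/- arrays against 813 and 538 on the wildtype arrays. The lower Sox17+/- array stood above the higher wildtype array by 0.54 on the log2 scale. The log2 difference was 0.96 (SE 0.28, limma unadjusted p = 0.0168), rank 119 from the top among the 11691 genes. The means were 1304 ± 166 in Sox17+/- liver and 675 ± 194 in wildtype (SD, n = 2 each).

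Phosphofructokinase, the committed step, was read for its platelet-type and liver-type subunits. Pfkp (chr13:6579874-6649060) had signals of 1107 and 715 in Sox17+/- liver against 328 and 218 in wildtype, the largest difference of the 9 enzymes and rank 24 of all genes. The means were 911 ± 277 in Sox17+/- liver and 273 ± 77.6 in wildtype (SD, n = 2 each). The log2 difference was 1.68 (SE 0.32, 95% interval 0.86 to 2.49), nearly equal within the pair numbered 1 (1.71) and the pair numbered 2 (1.64). A second Pfkp probe set had 358 and 429 against 110 and 226, again without overlap. The remaining one, too dim for the test, ran the other way at 8.60 and 35.2 against 32.6 and 48.0. Pfkl (chr10:77986947-78009807), the liver-type subunit, had signals of 5698 and 6457 in Sox17+/- liver against 3919 and 5053 in wildtype. Its groups did not overlap, but its log2 difference of 0.45 was smaller (95% interval -0.14 to 1.03), and 1 of its 3 probe sets, at signals of 77.6 and 174 against 82.1 and 199, was lower in both pairs. Without wildtype replicate 1 the Pfkl difference was 0.26, and averaged over its probe sets it was 0.28. Averaged over all 3 of its probe sets, the Pfkp difference was 0.75.

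The balance between the phosphofructokinase subunits can be read within each array, where any scaling of the whole array cancels. The Pfkp signal was 0.194 and 0.111 of the Pfkl signal on the Sox17+/- arrays, against 0.0836 and 0.0431 on the wildtype arrays. These are ratios of probe set signals and not of molecules. On the log2(signal + 16) scale the ratio differed by 1.23, with no overlap between genotypes. The exact permutation test gave p = 0.333 (two-sided), the smallest that 2 arrays against 2 allow. The difference was 0.77 without wildtype replicate 2 and 0.47 when all probe sets of each gene were averaged.

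In the middle of the pathway, the aldolase gene stood out and triose phosphate isomerase did not. Aldoa (chr7:126795234-126800994), which splits fructose bisphosphate, had signals of 16663 and 11100.2 in Sox17+/- liver against 6903 and 5524 in wildtype. The means were 13882 ± 3934 in Sox17+/- liver and 6214 ± 974.7 in wildtype (SD, n = 2 each). Every Sox17+/- array was above every wildtype array on all 5 Aldoa probe sets, and the log2 differences ran from 0.26 to 1.23, with 1.14 (SE 0.28, limma unadjusted p = 0.0093) on the brightest. All 5 carry Affymetrix's suffix for probes that also match other sequences, so related copies may contribute signal. The same holds for the brightest probe sets of Tpi1 and Pgk1. Tpi1 (chr6:124810586-124814158), which interconverts the triose phosphates, had signals of 21965 and 15948 against 17126 and 13033. Its second Sox17+/- array lay below the first wildtype array, and the log2 difference was 0.32 (95% interval -0.36 to 1.01). It was 0.09 without Sox17+/- replicate 1, 0.56 without Sox17+/- replicate 2, 0.52 without wildtype replicate 1 and 0.13 without wildtype replicate 2. All 3 Tpi1 probe sets were higher in both pairs, and on 1 of them the groups did not overlap, at 17130.2 and 13774 against 9221 and 9505.

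Phosphoglycerate kinase and phosphoglycerate mutase were higher in mean signal, by 1.48 and 1.23 times. Pgk1 (chrX:106187100-106203699), the phosphoglycerate kinase that makes the first ATP of the payoff phase, had signals of 27211.5 and 16609.8 in Sox17+/- liver against 16845 and 12733 in wildtype. The groups overlapped narrowly, by 0.02 on the log2 scale (the gap was -0.02), and the log2 difference was 0.54 (95% interval -0.27 to 1.35). It was 0.18 without Sox17+/- replicate 1, 0.89 without Sox17+/- replicate 2, and 0.34 without wildtype replicate 2. All 3 Pgk1 probe sets were higher in both pairs, with log2 differences of 0.38 to 0.92, and none was without overlap. Pgam1 (chr19:41911871-41918665), the mutase that shifts the phosphate within phosphoglycerate, had 13801 and 11708 against 11674 and 9133. Those groups were separated by almost nothing, 11708 against 11674, and the log2 difference was 0.30 (95% interval -0.30 to 0.90). It was 0.18 without Sox17+/- replicate 1, 0.48 without wildtype replicate 1 and 0.12 without wildtype replicate 2.

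At the exit of the pathway, pyruvate kinase M separated the genotypes and lactate dehydrogenase A did not. Pkm (chr9:59656576-59679372), whose splice forms serve most tissues other than adult liver, had signals of 3735 and 2625 in Sox17+/- liver against 1805 and 1563 in wildtype. The means were 3179.81 ± 785 in Sox17+/- liver and 1684 ± 171 in wildtype (SD, n = 2 each). The groups did not overlap, and the log2 difference was 0.89 (SE 0.26, limma unadjusted p = 0.0168), rank 138. Ldha (chr7:46842274-46855627), which turns pyruvate into lactate, had 39309 and 23903 against 37119.7 and 21052. Its arrays sorted by number and not by genotype, and its log2 difference of 0.13 had a 95% interval of -0.85 to 1.12. It was -0.23 without Sox17+/- replicate 1, 0.49 without Sox17+/- replicate 2, 0.54 without wildtype replicate 1 and -0.28 without wildtype replicate 2. Ldha was also at the bright end of the range, above 99.8% of probe sets. With each array centred on its median its difference was -0.03 within the pair numbered 1 and 0.39 within the pair numbered 2, and with quantile normalization -0.03 and 0.27, so that under these scalings 8 of the 9 enzymes, all except Ldha, were higher in both pairs.

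**Figure D2:**
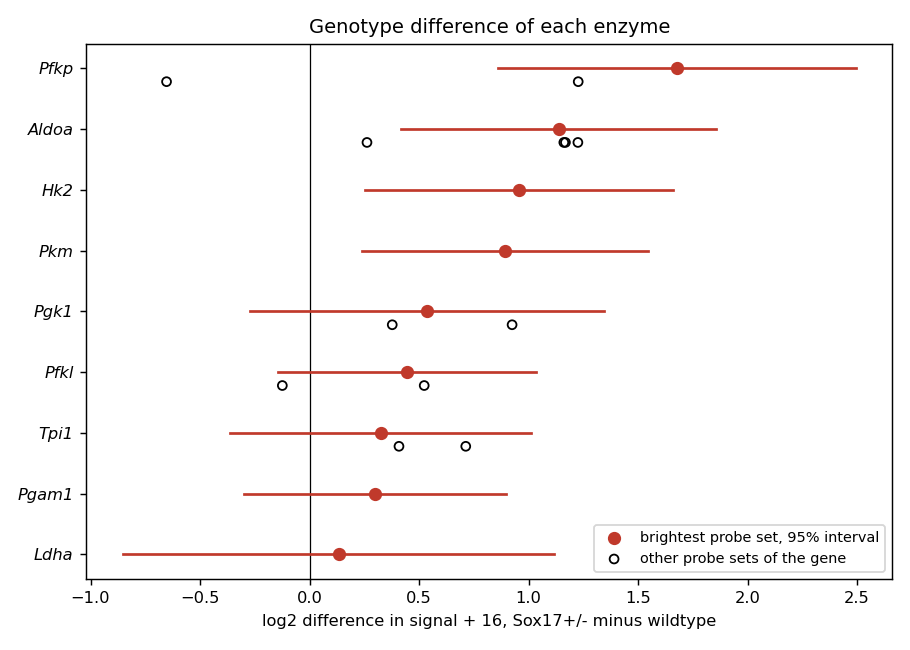
Log2 difference in signal + 16, Sox17+/- minus wildtype, of each enzyme (rows, largest at the top), with the 95% interval from limma (n = 2 arrays a genotype). Filled red points are the brightest probe set of each gene and open circles its other probe sets. The intervals of Pfkp, Aldoa, Hk2 and Pkm lie above 0, and the lowest open circle is the dim probe set of Pfkp.

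For 4 enzymes, Hk2, Pfkp, Aldoa and Pkm, the signal was over 1.5 times higher in each pair on the log2(signal + 16) scale, which 1.14% of tested genes were. For Pfkp and Aldoa the mean log2 difference was at least 1, which 0.941% of tested genes reached. In pathway order they encode forms of hexokinase, phosphofructokinase, aldolase, which acts on the product of phosphofructokinase, and pyruvate kinase. They do not stand for the whole steps. Hk1, Pfkl and Pklr had higher signals than Hk2, Pfkp and Pkm on every array, and log2 differences of 0.19, 0.45 and 0.54. Over all probe sets of the 9 genes, 19 of 21 were higher in both pairs and 2, the dim ones of Pfkp and Pfkl, were lower in both.

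**Figure D3:**
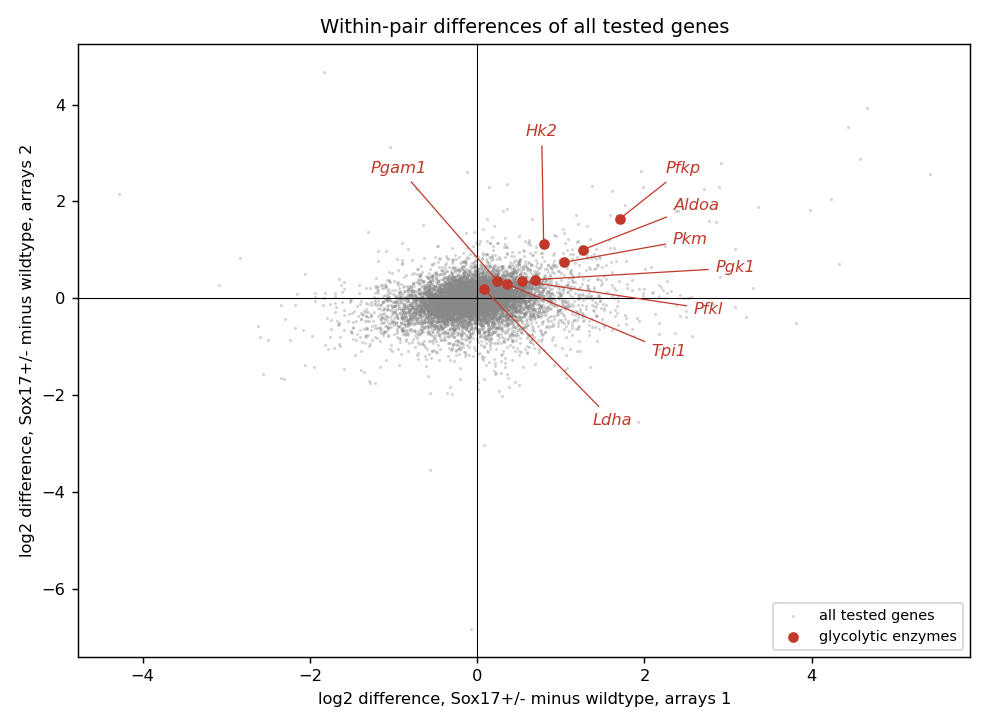
Log2 difference in signal + 16 within the arrays numbered 1 (x axis) and within those numbered 2 (y axis), Sox17+/- minus wildtype, for 11691 tested genes (grey) and 9 glycolytic enzymes (red, labelled). All 9 red points lie above 0 on both axes, from Ldha near the origin to Pfkp at 1.71 and 1.64.

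Other enzymes and isoforms of glycolysis were mixed in direction. Of 20 listed genes, 16 had a probe set with 1 symbol and 12 were bright enough to be tested. Of these, 0 passed in either direction, 4 were higher within each pair and 2 lower within each, where 25.5% and 32.2% of all tested genes were. Their median log2 difference was 0.09. The liver and red cell pyruvate kinase Pklr had signals of 3769 and 4974 in Sox17+/- liver against 2807 and 3133 in wildtype, without overlap (log2 difference 0.54). Hk1, the widespread hexokinase, had 6032 and 7820 against 5870.3 and 6156, a log2 difference of 0.19. Bpgm, which makes the red cell metabolite bisphosphoglycerate, had a log2 difference of 0.01, and Pfkm, the muscle-type phosphofructokinase, 0.06. Minpp1 and the brain aldolase Aldoc had log2 differences of 0.29 and 0.34. The 4 genes too dim to test were Pgk2, Pgam2, Eno2 and Ldhc, with signals of at most 199 on any array.

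Gapdh, the step between Tpi1 and Pgk1, was named by itself only on control probe sets. Its 3' control read 28573 and 19179.8 on the Sox17+/- arrays against 27187 and 18514 on the wildtype arrays. The log2 differences of the 3 Gapdh controls were 0.02 to 0.06, where Aldoa, on the same arrays, had 1.14. The difference between these genes was not tested.

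Within-array ratios were formed for 3 isoform pairs, the phosphofructokinase subunits among them. The Pkm signal was 0.991 and 0.528 of the Pklr signal on the Sox17+/- arrays, against 0.643 and 0.499 on the wildtype arrays. The groups overlapped (log2 difference of the ratio 0.35, exact permutation p = 0.667, two-sided), and without Sox17+/- replicate 1 the difference was -0.10. It was 0.80 without Sox17+/- replicate 2, 0.53 without wildtype replicate 1 and 0.17 without wildtype replicate 2. The Ldha signal was 104 and 67.5 times the signal of the heart-type subunit Ldhb on the Sox17+/- arrays, against 72.3 and 45.3 times on the wildtype arrays. The ratio was higher in both pairs, by 0.51 and 0.56 on the log2 scale, and the exact permutation test gave p = 0.667. The Ldhb signal did not overlap between genotypes, with 378 and 354 in Sox17+/- liver against 514 and 465 in wildtype. With all arrays the difference of the Ldha ratio was 0.54, without Sox17+/- replicate 1 it was 0.22, without Sox17+/- replicate 2 0.85, without wildtype replicate 1 0.87 and without wildtype replicate 2 0.20.

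Transporters carry sugar into the pathway and lactate out of it. Of 8 tested genes, 0 passed. In both pairs 6 were higher, and 2 were lower, where 25.5% and 32.2% of all tested genes were. Their median log2 difference was 0.13. Slc16a3, the lactate exporter MCT4, had signals of 1193 and 2270.4 in Sox17+/- liver against 611 and 928 in wildtype (log2 difference 1.11). Slc2a3, the high-affinity glucose transporter GLUT3, had 3151 and 3127 against 1684 and 1976 (log2 difference 0.78). Neither overlapped. Slc2a1, the widespread glucose transporter GLUT1, had 32738 and 21147 against 23449.6 and 18672, and overlapped. Slc2a2, the hepatocyte glucose transporter GLUT2, had 3512 and 2939 against 5506 and 3225, lower in both pairs but overlapping. The others, Slc2a4, Slc16a1, Slc16a7 and Bsg, had log2 differences of -0.18 to 0.15.

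Of 12 tested regulators of glycolytic flux, 0 passed. In both pairs 5 were higher, and 2 were lower, beside the same 25.5% and 32.2% of all tested genes. Their median log2 difference was 0.19. Gckr, a regulatory protein of hepatocytes, had signals of 678 and 674 in Sox17+/- liver against 2152 and 1185 in wildtype (log2 difference -1.22, limma unadjusted p = 0.0125, adjusted p = 0.9999). The pyruvate dehydrogenase kinases Pdk1 and Pdk3, which close the mitochondrial entry of pyruvate, had log2 differences of 0.31 and 0.24, each without overlap. Txnip, a brake on glucose uptake, and the glycogen-targeting subunits Ppp1r3b and Ppp1r3c had overlapping groups. Pfkfb3, which makes the activator of phosphofructokinase and is named here after its values were seen, had 472 and 363 against 304 and 156.

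The routes that branch from or run against glycolysis were also read. In the pentose phosphate pathway, 1 of 7 tested genes was higher in both pairs (Pgls) and 1 was lower (Tkt), against 25.5% and 32.2% of all tested genes, and the log2 differences of Tkt, Taldo1, Pgd, Pgls, Rpe, Rpia and H6pd lay between -0.21 and 0.10. Of 22 genes of pyruvate dehydrogenase and the citrate cycle, 1 was higher and 12 were lower within each pair (median -0.07), with Mdh1, Mdh2, Sdhb and Sdha at -0.13, -0.13, -0.25 and -0.07, and Pdhb and Idh3g at 0.07 and -0.01. The 12 lower genes stand against 32.2% of all tested genes. Of 5 tested gluconeogenic genes, 0 were higher and 2 lower within each pair (median -0.26), beside the same 25.5% and 32.2% of all tested genes. Fbp1, which reverses the phosphofructokinase step, had signals of 12634.7 and 3539.94 in Sox17+/- liver against 21030.0 and 3562 in wildtype, and split by array number. Slc37a4, the glucose phosphate transporter of the endoplasmic reticulum, had 2894 and 1993 against 5768 and 2797. Pcx, Pck2 and G6pc3 had log2 differences of -0.26, 0.23 and 0.03 and overlapped. Pck1, G6pc and Fbp2 were too dim to test, with signals of at most 94.3.

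**Figure D4:**
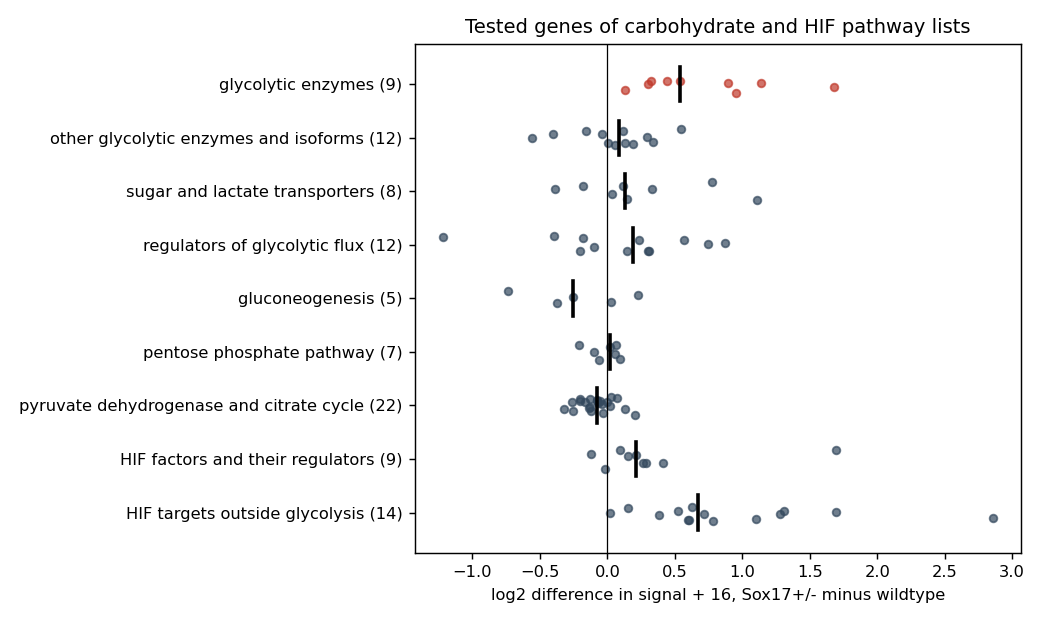
Log2 difference in signal + 16, Sox17+/- minus wildtype (x axis), of the tested genes of 9 lists (rows, number of genes in brackets). Points are genes, black bars are list medians and the glycolytic enzymes are red. The medians are 0.54 for the glycolytic enzymes and 0.67 for HIF targets outside glycolysis, and between -0.26 and 0.21 for the other lists.

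HIF targets outside glycolysis, listed with earlier results known, had a median log2 difference of 0.67. Of 14 tested genes 0 passed, 12 were higher within each pair and 0 lower within each, against 25.5% and 32.2% of all tested genes. Among the brightest of them, Ero1a had a log2 difference of 0.72, Kdm3a 0.59, Bnip3 0.63, Higd1a 0.38, Hmox1 1.31 and Ndrg1 0.02. Of the HIF alpha subunits, Hif1a had 1825 and 2078 in Sox17+/- liver against 2102 and 2129.94 in wildtype, lower without overlap by a small margin (log2 difference -0.12). Epas1 and Hif3a had log2 differences of 0.09 and 0.15. HIF protein was not measured. Egln3, a prolyl hydroxylase that is itself induced by HIF and stands in both HIF lists, had 3266 and 1389 against 1016 and 413, while Egln1 and Egln2 had log2 differences of 0.27 and -0.01.

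The genes outside these lists whose 4-array profile was nearest to the mean of the 9 enzymes were Gpr137b-ps, Prxl2b, Ntrk2, Gpihbp1 and Gch1. Nearness was the Euclidean distance between log2 profiles centred on their means, over 4 arrays, and ran from 0.0933 to 0.118. Gpihbp1, which anchors lipoprotein lipase on capillary endothelium, had signals of 1025 and 684 in Sox17+/- liver against 561 and 418 in wildtype. Gch1, the first enzyme of tetrahydrobiopterin synthesis, had 873 and 711 against 554 and 439. Of the enzymes themselves, Pkm (0.218) and Pgk1 (0.263) lay nearest to the mean profile and Pfkp (0.984) farthest.

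Cell type markers were read on the same arrays because glycolytic enzymes differ between cell types. Summed erythroid marker signals were 92855 and 78635 in Sox17+/- liver against 90708 and 80457 in wildtype, with 1 of 6 tested markers higher in both pairs and 2 lower. Summed hepatocyte markers were 245912 and 141665 against 242116 and 148568, with 1 of 7 higher and 1 lower. Such a sum follows its brightest genes, among them Alb and Afp, and does not measure the share of hepatocytes. Among liver genes of the lists above, Gckr (log2 difference -1.22) and Slc2a2 (-0.39) were lower in both pairs, and Pklr (0.54) was higher in both. All 6 megakaryocyte markers were lower without overlap, at sums of 22599 and 23107 against 28758 and 27326, where 18.6% of tested genes were lower without overlap. Of 8 macrophage markers 2 were higher and 5 lower in both pairs, and of 9 neutrophil markers 4 and 3. The macrophage markers had log2 differences from -1.68 to 0.20. Without overlap 0 of them were higher and 3 lower, against 14.5% and 18.6% of tested genes. Endothelial markers had 3 of 7 higher and 1 lower, mesenchymal markers 2 and 3 of 7, and biliary markers 1 and 0 of 3. Skeletal muscle markers, of which 2 of 8 were bright enough to test, summed to 825 and 848 against 1195 and 846, and pancreas and gut markers to 1839 and 1398 against 1598 and 1507. Hba-a1, an erythroid gene, was near the floor on every array (13.4 to 27.8), and so were the muscle gene Myh3 and the pancreatic genes Cpa1 and Cpb1 (at most 52.3). The part of cell composition in the enzymes' differences was not tested.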

How the data were processed

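RNA from 2 Sox17+/- and 2 wildtype livers was read on single-colour Affymetrix arrays. Per the submitters' processing notes, the authors used MAS5, and the deposited table holds linear intensity values. The values show a scaling of each array to a trimmed mean of 500 (2% removed at each end). The table held 45101 probe sets, of which 64 were controls. Of the other 45037, 34945 had 1 gene symbol in the platform annotation, 932 several and 9160 none. No detection calls were used, and the number of arrays limits the precision.

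Log2(signal + 16) was tested on the brighter 50% of probe sets (22519) with limma 3.58.1 in R 4.3.3, with genotype as the only term and Benjamini-Hochberg adjustment over those probe sets. The pseudocount shrinks the folds of dim genes. A log2 difference is Sox17+/- minus wildtype. The code was tested on simulated data with the means and spreads of these arrays, the spreads shuffled among probe sets and each array drawn independently. Any tie of spread to signal, or between same-numbered arrays, was thus left out. In that simulation limma called 0.2% of planted log2 differences of 1 and 26.8% of those of 2, so a gene that was not called may still differ. The rates on the real arrays may be different. The enzymes, pathway lists, markers and tests were chosen with earlier results of these data known. From lists with at most 8 measured genes every gene was named, and from longer ones the 6 brightest, besides the isoform pairs. Gapdh, Pfkfb3, the sex-linked genes, single markers and array controls, and glycolytic genes said to be too dim were named outside that rule.

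Both genotypes use replicate numbers 1 and 2, and in the labels the arrays of one number carry the same code. Their deviations from the genotype means correlated (r = 0.383 over 22519 probe sets), so differences within pairs are given and a fit with the number as a block was an alternative. Others were pseudocounts of 1 and 64, no filter, the brighter 25%, median centring, quantile normalization, a trended robust prior, leaving out each array, and the mean over a gene's probe sets. Counts of enzymes under other scalings and without single arrays were added after seeing the data.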

Additional observations from a re-analysis of the deposited data

How the results depend on the processing

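Over 13 alternatives each, 115 of the 117 log2 differences of the 9 enzymes stayed above 0. The exceptions were both Ldha, at -0.23 without Sox17+/- replicate 1 and -0.28 without wildtype replicate 2. The changes of filter, the replicate block and the trended robust prior cannot move a log2 difference, so their part of this count was fixed in advance. With all arrays kept, 0 differences passed limma's adjusted p of 0.05 (lowest 0.476, Pfkp with the block). The median of the enzymes lay between 0.54 and 0.89 when single arrays were left out and between 0.50 and 0.61 under the other settings. Enzymes without overlap numbered 6 in the main setting, where 14.5% of all tested genes were higher without overlap. They numbered 5 with median centring, 8 with quantile normalization and 6 to 9 without single arrays. The share of all tested genes was not computed under those other settings, so these counts have nothing to be set against. The limma test called 5 probe sets as higher with median centring and 3 with a trended robust prior, none of them the brightest probe set of an enzyme, and 0 under the other settings. With the array number as a replicate block it called 0, and at an unadjusted p under 0.05 it gave 742 higher and 951 lower, with 5 of the 9 enzymes among the higher ones (lowest adjusted p of an enzyme 0.476, for Pfkp). The block changed no call. The Pkm over Pklr ratio turned to -0.10 without Sox17+/- replicate 1 and ranged from there to 0.80 over the arrays left out. The cause was not tested.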
